A study of Mus musculus with 13 samples.

Results

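The data described here are RNA sequencing profiles of CD4+ conventional T (Tconv) cells sorted from B16-F10 melanomas, a mouse melanoma line implanted under the skin, with regulatory T (Treg) cells either present or ablated. The comparison used 5 of the 13 libraries of the series, 3 from mice given diphtheria toxin (DTx) and 2 from mice given PBS. All of the animals carried the Foxp3-EGFP-DTR allele, which places EGFP and the diphtheria toxin receptor under Foxp3, so that DTx kills Foxp3-expressing cells and PBS spares them. The Tconv cells were CD4+ cells without EGFP, and the PBS animals therefore differed from the DTx animals in treatment and in whether Treg cells were present, not in genotype. Values for single libraries are given in the order of the sample titles, replicates 2 and 3 for PBS and replicates 1, 2 and 3 for DTx. Whether a library came from 1 animal or from several is not given in the labels. The p-values therefore measure the spread between libraries within groups, taken over all 13 libraries, those of CD8 and Treg cells included. Of 12963 genes in the deposited table, 12667 reached 10 normalized reads in 2 or more of the 13 libraries and were tested, and 296 did not reach this level.

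Conventional CD4 T cells leave the naive state when their antigen receptor and costimulatory receptors are engaged. They then divide, switch toward glycolysis, lose the receptors that guide them to lymph nodes, and acquire cytokine programmes that are grouped as type 1 (interferon gamma), type 2 (interleukins 4, 5 and 13) and type 17. Treg cells restrain these steps through the consumption of interleukin 2, CTLA-4, adenosine production and inhibitory cytokines, and many genes that mark Treg cells in tumors are also turned on in activated Tconv cells.

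In CD4 DTx, 868 genes were called against CD4 PBS, which is 6.85% of the genes tested. A gene was called when limma's Benjamini-Hochberg adjusted p-value was under 0.05 and the log2 fold change was above 2 or below -2, a 4-fold change on the log2(normalized reads + 1) scale. Of these, 641 were higher after DTx (5.06% of genes tested) and 227 were lower (1.79%). At the adjusted p-value alone, 1612 genes passed (12.7%), of which 1095 were higher (8.64%) and 517 lower (4.08%). All 868 had the 3 DTx libraries on a single side of both PBS libraries, which also held for 46.3% of all genes tested, 23.4% with DTx higher and 22.9% with DTx lower. The median log2 fold change over all genes was -0.04, and it was -0.18 when libraries were scaled to total reads, a shift that applies to every fold change below. To describe the response by function, 48 lists of genes for pathways, complexes and families were followed, and 204 of the called genes were in a list. Each count of called members below is to be read against the 6.85% called over all genes tested, 5.06% higher and 1.79% lower. Genes of mitosis, cytokine and chemokine signalling, killing, cell surface receptors and calcium-binding S100 proteins were called higher, and genes of the naive T cell state were called lower. No member of the lists for the respiratory chain, the ribosomal proteins of either compartment, ribosome assembly, the citric acid cycle or the proteasome was called.

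**Figure D1:**
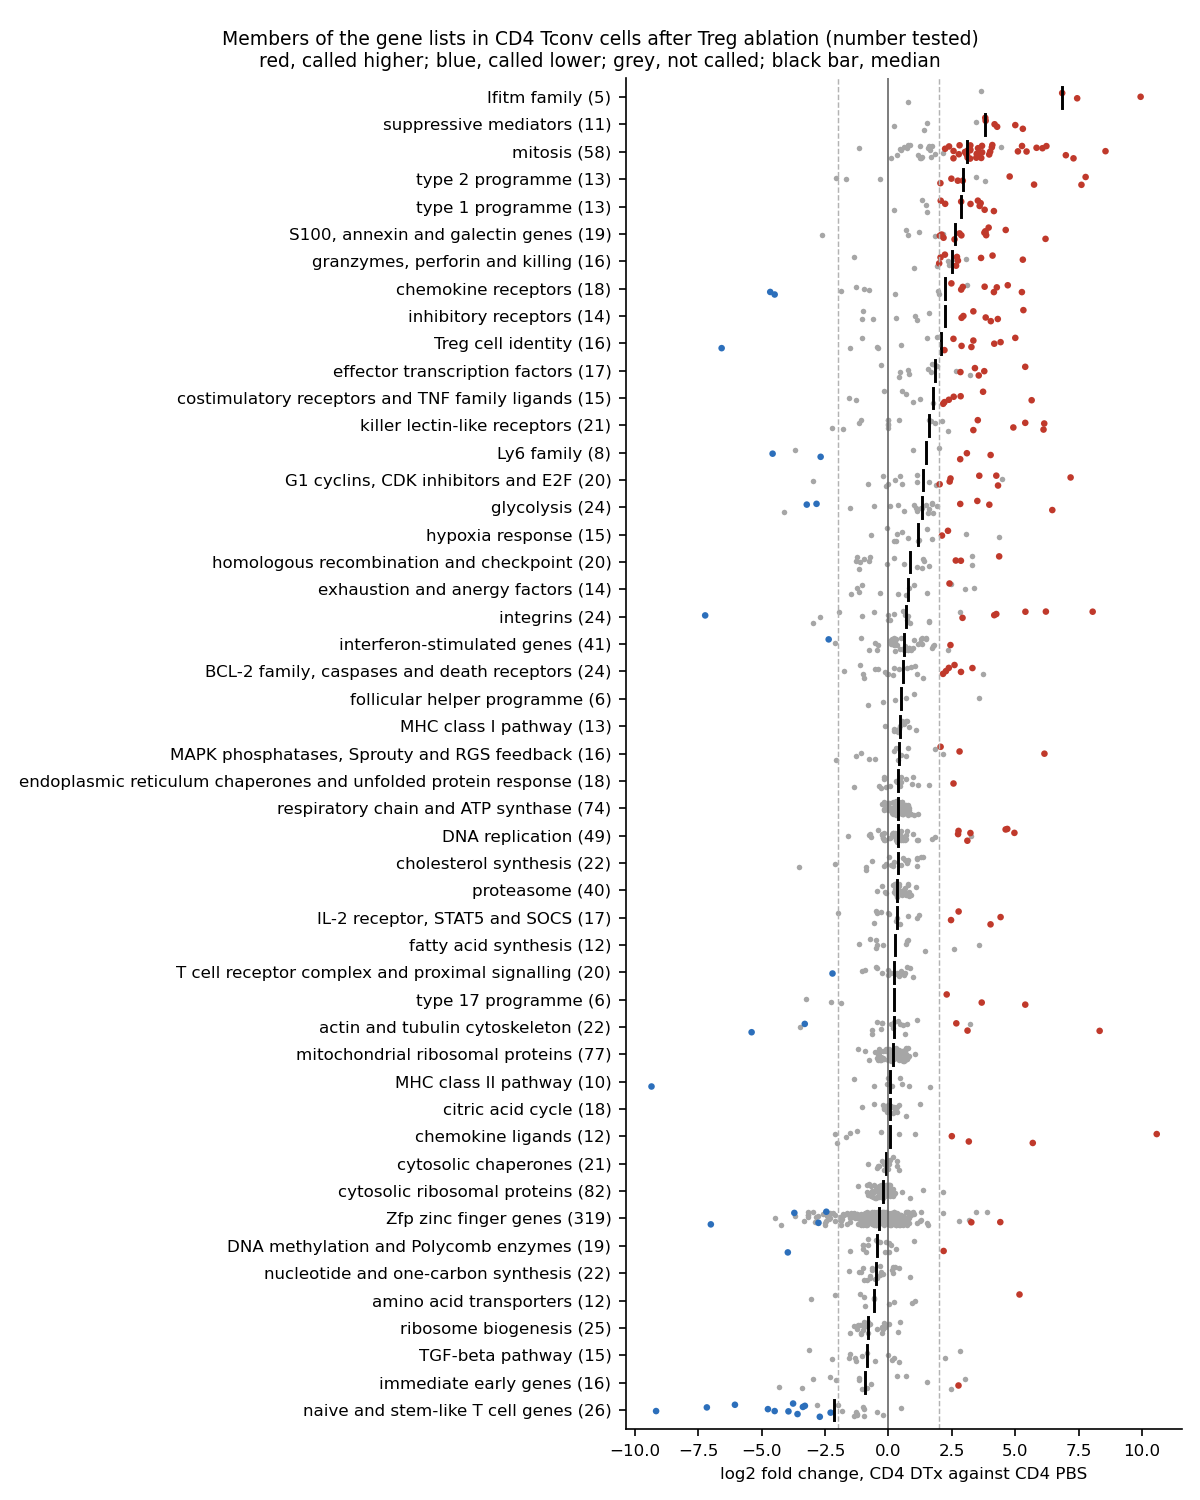
Log2 fold change between CD4 DTx and CD4 PBS for every tested member of each gene list with at least 5 tested members, ordered by list median, the lists of markers of other cells and of sex-linked genes being left out. The Ifitm family, with a median of 6.85, is at the top of the lists shown and naive and stem-like genes, with -2.13, at the bottom, while the lists for the respiratory chain and the ribosome lie close to 0 with no coloured point.

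The libraries held between 15947556 and 34140486 recovered reads, the whole reads implied by the deposited values. Foxp3 was at 0 and 0 normalized reads in PBS and 1.87, 0 and 0 in DTx, at or under the detection floor of 3 reads in each library, as the sort requires. Cd4 was at 19673 and 17779.6 normalized reads in PBS and 24015, 23096 and 32504 in DTx. By Xist and Y-linked genes, 3 of the libraries were female (PBS 2, DTx 1 and DTx 2) and 2 were male (PBS 3 and DTx 3), so each group held both sexes, and with sex as a term 861 genes were called, 831 of them among the 868. DTx 1 stood somewhat apart, with correlations of log2 values of 0.907 and 0.88 with the other DTx libraries, against 0.928 between DTx 2 and DTx 3 and 0.93 between the PBS libraries. Leaving out PBS 3 lowered the number of called genes to 496 and leaving out PBS 2 to 608. In those fits a lone PBS library is assumed to vary like the other groups. With only the 5 CD4 libraries in the fit 601 genes were called, 553 of them among the 868.

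Transcripts of other cells differed between the groups and are given for their whole lists. The CD8 T cell markers summed to 560.3 and 615 normalized reads in PBS and 370.3, 2352 and 3662 in DTx. Cd8a alone was at 31.4 and 26.4 in PBS and 103, 711 and 1302 in DTx (log2 fold change 3.94, SE 0.84, limma, adjusted p = 0.00874), a call lost when either PBS library was left out, and Cd8b1 at 529 and 589 in PBS and 267, 1641 and 2359.9 in DTx. In the DTx libraries Cd8a amounted to 0.256%, 1.77% and 3.24% of its mean in CD8 DTx cells. If all CD8 transcripts had entered in these proportions, they would come to at least 50% of the measured level for 1, 1 and 5 of the 641 genes called higher in DTx 1, 2 and 3. The 11 B cell markers in the table summed to 16629.8 and 16385 in PBS and 6639, 4618 and 3776 in DTx, mostly Ighm, and Ebf1 was at 0 in every library. Cd22 went the other way from this sum, at 105 and 89.2 in PBS and 149, 399 and 362 in DTx. The 18 macrophage and dendritic cell markers summed to 2919 and 2760.3 in PBS and 3285, 5539.7 and 4308 in DTx, and Itgax and Xcr1 were called higher. Of these markers, Csf1r was at 0 and 7.27 in PBS and 0, 82.8 and 2.63 in DTx. Flt3 was at 21.9 and 0 in PBS and 0.935, 0 and 15.8 in DTx, and Mrc1 at 0 and 27.1 in PBS and 0, 0 and 0 in DTx. Others had more reads, among them C1qb, at 156 and 159 in PBS and 0, 73.6 and 129 in DTx. C1qc lay at 65.6 and 81.9 in PBS and 48.6, 97.1 and 65.8 in DTx, and Cd68 at 187 and 231 in PBS and 21.5, 147 and 217 in DTx.

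Erythroid transcripts were at 0 in DTx 1 and DTx 3, the 5 markers summing to 948 and 6643 in PBS and 0, 1176 and 0 in DTx. Melanocyte markers, 6 in the table, summed to 1024 and 681 in PBS and 360.0, 794 and 602 in DTx. The 6 neutrophil markers summed to 123 and 86.5 in PBS and 1526, 1197 and 740.1 in DTx, nearly all of it Mmp9, a gelatinase, which was at 54.7 and 37 in PBS and 1515, 1171 and 628 in DTx, while S100a8 and S100a9 were above 0 in DTx 3 and at 0 in the other libraries. The 8 natural killer (NK) cell markers summed to 448 and 106 in PBS and 959, 394 and 381 in DTx, Klra8 was at 0 in every library and Ncr1 lay at 38.3 and 30.4 in PBS and 89.8, 115 and 26.3 in DTx. Pecam1, 1 of 2 fibroblast and endothelial markers in the table and a gene also expressed by naive T cells, was at 7291 and 7092 in PBS and 1772, 2719 and 2681 in DTx, and Pdgfrb was at 0 and 0 in PBS and 0, 35.8 and 3.95 in DTx. The part of these cells in the results below was not tested beyond the values given.

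**Figure D2:**
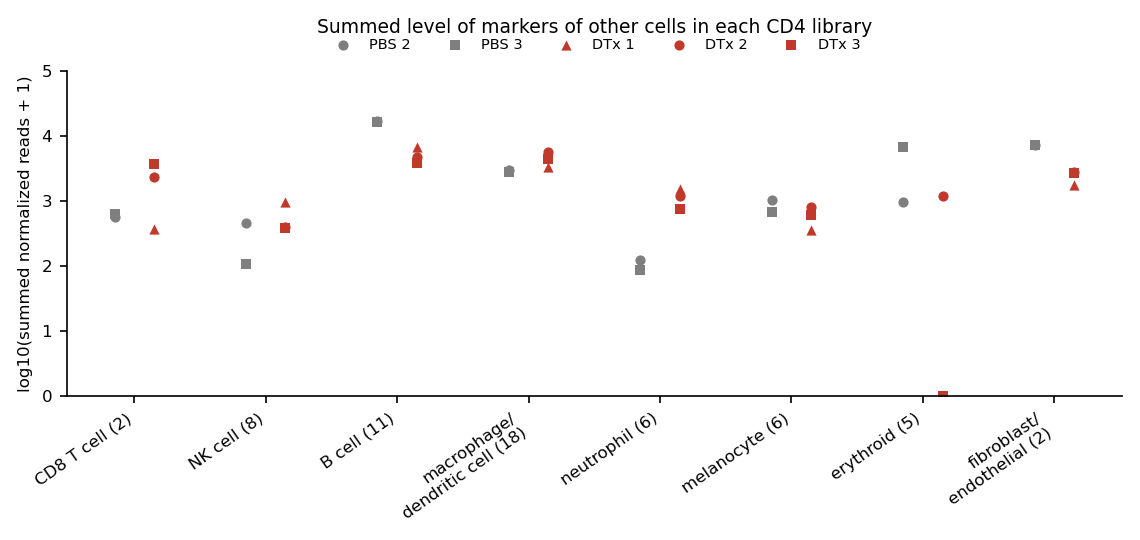
Summed normalized reads of the markers of other cells in each CD4 library, on a log10 axis, with PBS libraries in grey and DTx libraries in red and the number of markers in the table in brackets. CD8 markers were highest in DTx 3 and DTx 2, B cell markers were lower in all DTx libraries, and erythroid markers were at 0 in DTx 1 and DTx 3.

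The genes with the largest rises were mostly undetected in CD4 PBS. Ccl1, the ligand of the chemokine receptor CCR8, was at 0 in both PBS libraries and at 1634, 1340.4 and 1647 normalized reads in DTx, at least 376-fold higher (limma, adjusted p = 8.67e-06). Fam20a, a pseudokinase of the secretory pathway, was also at 0 in PBS and at 1167, 889 and 938 in DTx, at least 243-fold higher (limma, adjusted p = 2.32e-06). Trpm6, a magnesium channel, Tns2, a focal adhesion protein, and Nmur1, the receptor of the neuropeptide neuromedin U, were at 0 in PBS and at least 265-fold, 111-fold and 82.4-fold higher. Trpm6 was uneven among the DTx libraries, at 249, 1837 and 1172 normalized reads, whereas Nmur1 lay at 400.2, 368 and 245. The serine protease Prss30 rose from 0 to 542, 213 and 323, the mucin Muc20 to 277, 514 and 238 and the actin-severing protein Scin to 426, 187 and 412. Nhsl2 went from 0 and 4.62 to 524, 1160.5 and 565 (log2 fold change 8.21, SE 0.96, limma, adjusted p = 2.19e-04). Itgax, which encodes the integrin CD11c, was at 0 in PBS and at 281, 247 and 267 in DTx, at least 64.7-fold higher, and CD8 carry-over at the Cd8a proportions would come to at most 55.6% of its level in any DTx library. For all 12 genes with the largest rises, which also include Ifitm1 and Kif18b below, the calls held when any 1 library was left out.

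At the other end, genes that were high in CD4 PBS dropped out of the DTx libraries. H2-Ob, the beta chain of a nonclassical MHC class II protein that modulates peptide loading, was at 1429 and 1493 normalized reads in PBS and 0, 10.2 and 0 in DTx (log2 fold change -9.35, SE 1.09, limma, adjusted p = 2.16e-04). The transcription factor Sox4 fell from 388 and 842 to 0 in DTx 1, 2 and 3, at least 156-fold lower (limma, adjusted p = 3.11e-04). Dntt, the terminal transferase that adds bases to antigen receptor junctions, fell from 264 and 341 to 0, at least 76.5-fold lower. Sorcs2, a sorting receptor, and A530021J07Rik were likewise at 0 after DTx and at least 74.5-fold and 47.1-fold lower. Ptk2, the focal adhesion kinase, went from 514 and 614 to 0, 0 and 3.95, a ratio of 544 with a 95% counting interval of 186 to 2639.7. Cnn3, a calponin, fell from 1798 and 2283 to 0, 5.11 and 22.4 and Slc16a5, of the monocarboxylate transporter family, from 2329 and 2901 to 7.48, 33.7 and 6.58. Adh1, an alcohol dehydrogenase, Tspan9, a tetraspanin, Amigo2, an adhesion protein, and Cnksr3, a signalling scaffold, were the other 4, with log2 fold changes of -8.18, -7.93, -8.09 and -7.64. The calls of Cnn3, Ptk2, Slc16a5 and Amigo2 were lost without either PBS library, that of Cnksr3 without PBS 3 and that of Amigo2 also without DTx 1.

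Cytokine programmes of type 1 and of type 2 both rose. Of 13 tested genes of the type 1 programme, 9 were called higher and 0 lower (median log2 fold change 2.87, against -0.04 over all genes). Ifng, the cytokine that defines it, was at 297 and 479 normalized reads in PBS and 2212, 1085 and 1638 in DTx (log2 fold change 2.06, SE 0.56, limma, adjusted p = 0.0307). Its groups did not overlap, which held for every called gene. The call lay close to the 4-fold threshold and was lost without DTx 1, DTx 3 or either PBS library and under scaling to total reads. CD8 carry-over at the Cd8a proportions would come to at most 10.2% of Ifng in a DTx library. Of the interleukin 12 receptor chains, Il12rb1 rose from 481 and 147 to 1944, 4707 and 3991 and Il12rb2 from 527 and 255 to 8049, 2646 and 4135. The interleukin 18 receptor chain Il18rap rose from 1178 and 656 to 14125, 7899.5 and 9363 (log2 fold change 3.53, SE 0.37, limma, adjusted p = 1.52e-04). Tbx21, the T-bet factor of the type 1 fate, was chosen after its values were seen and lay at 681 and 347 in PBS and 3983, 4219.7 and 5764 in DTx (log2 fold change 3.24, SE 0.43, limma, adjusted p = 5.00e-04).

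Of 13 tested type 2 genes, 8 were called higher and 0 lower (median 2.93, or 2.74 with genes that were undetected in a group at their lower bound). At the adjusted p-value alone, 1 member was lower. The summed reads of the list overlapped between the groups, at 30201 and 31016 in PBS and 25005, 49852 and 39530 in DTx. Il4 was barely detected in PBS, at 1.37 and 0.661 normalized reads, and reached 256, 718 and 442 in DTx, a ratio of 525 with a 95% counting interval of 145 to 4339 (limma, adjusted p = 5.00e-04). Il5, which supports eosinophils, went from 8.2 and 0 to 738, 791 and 356 (log2 fold change 7.61, SE 1.54, limma, adjusted p = 0.00637). No DTx library came near the PBS level for either cytokine. Il1rl1, which encodes ST2, the receptor of interleukin 33, rose from 84.7 and 41.6 to 1886, 5156 and 3487 (log2 fold change 5.74, SE 0.47, limma, adjusted p = 6.60e-05), with DTx 1 the lowest of the DTx libraries. Pparg, a nuclear receptor used by type 2 cells, rose from 32.8 and 5.94 to 268, 826 and 334 and Ccr4 from 548 and 154 to 2032, 3032 and 1788. The factor Gata3, chosen after its values were seen, lay at 1880.4 and 2695 in PBS and 5309.6, 14502 and 10531 in DTx (log2 fold change 2.05, SE 0.41, limma, adjusted p = 0.0062). Il13 was not analysed here. Without PBS 3 the count of type 2 genes called was 5, the calls of Il5, Pparg and Ccr4 being among those lost, and with only the 5 CD4 libraries in the fit it was 4.

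Of 6 tested type 17 genes, 3 were called higher, the nuclear receptor Rora, the aryl hydrocarbon receptor Ahr and the interleukin 1 receptor Il1r1. The list's median was 0.21, or 0.49 with undetected genes at their bound. Its cytokines Il17a, Il17f and Il22 were not among the genes listed in the data, so whether they changed is not known. Ahr rose from 282 and 120.2 to 1458, 3009 and 3033 (log2 fold change 3.68, SE 0.63, limma, adjusted p = 0.00235), while the call of Il1r1 was lost when any library but PBS 2 was left out. None of 6 follicular helper genes was called. Il21, their cytokine, was higher in all DTx libraries, at 1257, 621 and 421 against 77.9 and 41.6 in PBS, but did not pass (limma, adjusted p = 0.0967).

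Among mediators of suppression, 6 of 11 tested genes were called higher and 0 lower (median 3.82). Entpd1, the ectoenzyme CD39 that breaks down extracellular ATP, rose from 137 and 91.8 to 3102, 4323 and 3545 (log2 fold change 5.0, SE 0.44, limma, adjusted p = 6.98e-05). Pdcd1lg2, which encodes the PD-1 ligand PD-L2, rose from 39.6 and 15.2 to 619, 383 and 525 and Ebi3, a subunit of interleukins 27 and 35, from 45.1 and 21.8 to 677, 511 and 590.0. Fgl2, a secreted fibrinogen-like protein, went from 455 and 236 to 3318, 4449.7 and 6995. For each of these 4 genes the groups were well apart. Il10 was at 0 and 1.98 in PBS and 0, 191 and 75.1 in DTx and did not pass (limma, adjusted p = 0.196), with DTx 1 at 0, and without that library it was called.

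**Figure D3:**
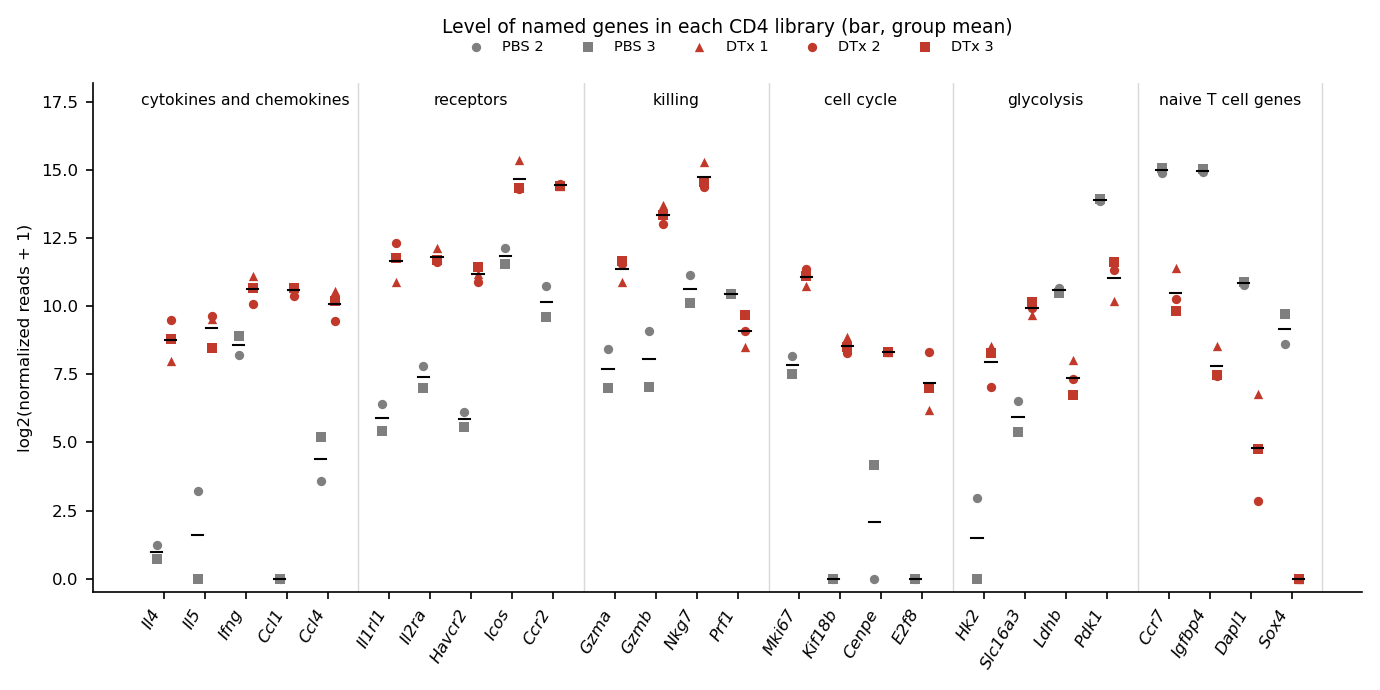
Level of 26 named genes in each CD4 library as log2(normalized reads + 1), PBS in grey and DTx in red, with the group mean as a bar. The DTx points lie above both PBS points for the cytokines, chemokines, receptors, cell cycle genes, Hk2, Slc16a3, Gzma, Gzmb and Nkg7, and below them for Prf1, Ldhb, Pdk1 and the naive T cell genes.

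Chemokine ligands divided into members that rose and members that did not. Of 12 tested, 4 were called higher and the median was 0.05, which turned to -0.08 under scaling to total reads. Besides Ccl1, these were Ccl3, Ccl4 and Ccl5, which attract effector T cells and myeloid cells. Ccl4 rose from 10.9 and 35.7 to 1519.6, 700.4 and 1184 (log2 fold change 5.69, SE 0.64, limma, adjusted p = 1.82e-04) and Ccl5 from 1286 and 703 to 6325, 3925 and 6284 (log2 fold change 2.5, SE 0.56, limma, adjusted p = 0.0111). Carry-over of CD8 transcripts at the Cd8a proportions would come to at most 40.7% of Ccl4, 25.5% of Ccl5 and 49.9% of Ccl3 in a DTx library. Without PBS 3, 2 ligands were called, the calls of Ccl3 and Ccl5 being lost.

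Of 18 chemokine receptors, 8 were called higher and 2 lower (median 2.25). The receptors that rose guide cells to inflamed tissue. Ccr2, the receptor of CCL2, went from 1697 and 773 to 21677, 22901 and 21958 (log2 fold change 4.27, SE 0.49, limma, adjusted p = 1.88e-04), nearly the same level in the 3 DTx libraries. Cxcr6, the receptor of CXCL16, went from 7748 and 3118 to 131970.0, 65866 and 77964. Ccr1, a receptor of inflammatory chemokines, rose from 39.6 and 28.4 to 872, 943 and 890.2. Ccr3, a receptor of eosinophils and type 2 cells, was at 0 in PBS and at 15, 83.8 and 40.8 in DTx. The 2 that fell were Ccr7, the receptor for entry into lymph nodes, from 30630.4 and 34691 to 2713, 1241 and 913 (log2 fold change -4.49, SE 0.67, limma, adjusted p = 0.00102), and Cxcr1, from 26 and 48.9 to 0, 2.04 and 0, a call that was lost without either PBS library, DTx 1 or DTx 3.

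Receptors that receive costimulation rose together with receptors that inhibit. Of 15 costimulatory receptors and TNF family ligands, 7 were called higher (median 1.75). Icos, the inducible costimulator, rose from 4474 and 2977 to 42664, 20355 and 20902 (log2 fold change 2.85, SE 0.4, limma, adjusted p = 6.68e-04). The TNF receptor Tnfrsf4 (OX40) rose from 2106 and 631 to 15811, 17142 and 13279.5 and Tnfrsf9 (4-1BB) from 764 and 655 to 6536, 2647 and 4338. Tnfrsf8 (CD30) was at 0 in PBS and at 42.1, 41.9 and 67.2 in DTx, and the ligand Tnfsf14 (LIGHT) went from 116 and 49.5 to 378, 551 and 308. Without PBS 3, 4 of the 15 were called, and Tnfsf14 was not among them.

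Of 14 inhibitory receptors, 7 were called higher and 0 lower (median 2.24). Havcr2, which encodes TIM-3, rose from 68.3 and 46.9 to 2328, 1880.3 and 2793 (log2 fold change 5.32, SE 0.46, limma, adjusted p = 6.98e-05). Tigit rose from 303 and 192 to 5245, 3569 and 2204, the leukocyte immunoglobulin-like receptor Lilrb4a from 362 and 210.0 to 6209, 3353 and 4509 and Klrg1 from 118 and 74 to 685, 1262 and 1022. Lag3 rose from 1.37 and 7.93 to 26.2, 151 and 183, with DTx 1 well under the other DTx libraries, and its call was lost without PBS 2.

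In the interleukin 2 pathway, 4 of 17 genes were called higher, and the same number was called when any 1 library was left out. They were the receptor chains Il2ra, from 223 and 126 to 4469, 3158 and 3351 (log2 fold change 4.42, SE 0.52, limma, adjusted p = 2.39e-04), and Il2rb, from 5515 and 2563 to 18744, 29279 and 30626 (log2 fold change 2.77, SE 0.36, limma, adjusted p = 4.24e-04), and the feedback genes Cish and Socs2, which STAT5 induces. Cish rose from 1376 and 1004 to 4844, 7769 and 7332 (log2 fold change 2.47, SE 0.26, limma, adjusted p = 1.52e-04) and Socs2 from 174 and 62.1 to 1837, 1677 and 1624 (log2 fold change 4.03, SE 0.56, limma, adjusted p = 6.66e-04). The other 13 members did not pass the 4-fold call, and the median of the list was 0.34. The Cish promoter is shown because its gene belongs to this set and the letters TTCNNNGAA, the spaced palindrome that STAT5 recognises, occur 2 times within it, in capitals, at 0 and 11 bases after the start. It is the RefSeq sequence in build GRCm38.p6, chr9:107296409-107296708, + strand, 250 bases before to 50 after the start, and TTCNNNGAA, which reads the same on both strands, was present in 7.01% of the promoters of this length of all tested genes with an entry, in 3 of the 14 list members with an entry (21.4%) and in 1 of 2 called members with an entry.

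Cish: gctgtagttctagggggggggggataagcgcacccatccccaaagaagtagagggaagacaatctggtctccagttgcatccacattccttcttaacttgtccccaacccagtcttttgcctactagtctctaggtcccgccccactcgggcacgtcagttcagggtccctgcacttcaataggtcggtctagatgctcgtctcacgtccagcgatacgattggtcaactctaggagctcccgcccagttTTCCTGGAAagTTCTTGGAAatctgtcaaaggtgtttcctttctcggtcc

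Killer lectin-like receptors and integrins changed in a subset of members. Of 21 killer lectin-like receptors, 6 were called higher (median 1.58, or 0.44 with undetected genes at their bound), without PBS 3 the count was 2, and with only the 5 CD4 libraries in the fit it was 3. Klrc1, which encodes the inhibitory NKG2A chain, was at 283 and 194 in PBS and 7003, 1035 and 2719 in DTx (log2 fold change 3.52, SE 0.78, limma, adjusted p = 0.0108). Klrc2 was at 487, 78.7 and 109 in DTx, Klri2 at 254, 22.5 and 57.9 and Klrb1b at 168, 59.3 and 83, all highest in DTx 1. That was the DTx library with the least Cd8a, but also the one with the largest sum of NK cell markers, 959, 394 and 381 in DTx 1, 2 and 3. The NK list shares members with the killer lectin-like list, so this sum is not independent of the values above. The part of NK cells in these values was not tested. Klre1 lay at 92.6, 63.4 and 72.4, and CD8 carry-over would come to at most 75.6% of it. The calls of Klrc1 and Klri2 were lost without either PBS library, that of Klri2 also without DTx 1 and that of Klrb1b without PBS 3. Of 24 integrins, 6 were called higher and 1 lower, or 29.2% against 6.85% of all genes tested (median 0.69). Of the collagen-binding chains, Itga1 (CD49a) rose from 10.9 and 57.5 to 1141, 1061 and 1148 and Itga2 (CD49b) from 68.3 and 57.5 to 1365, 1552 and 844. Itgae, the CD103 chain that binds E-cadherin, rose from 791 and 130.1 to 2357, 9253 and 9008 (log2 fold change 4.17, SE 0.76, limma, adjusted p = 0.00345), unevenly among the libraries of both groups. Itgb5 went from 0 and 1.32 to 45.8, 196 and 154. Without PBS 3 the calls of Itga2 and Itgae were lost and 4 integrins were called higher, and without PBS 2 that of Itgb5 was lost. Itga5, the fibronectin receptor chain, was at 145 and 153 in PBS and 0 in DTx, a call that was lost when any 1 library was left out. No gene of the TGF-beta pathway was called among 15 tested (median -0.86), while DESeq2 called 1 in each direction. The receptor Tgfbr2 lay at 17211 and 17941 in PBS and 5777, 9167 and 12024 in DTx and Smad4, the shared transducer, at 5246 and 6124 in PBS and 1809, 4259.6 and 3927 in DTx, neither passing the adjusted p-value.

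Of 16 genes of granules and target cell killing, 9 were called higher and 0 lower (median 2.52). Gzmb, a granzyme protease, rose from 547 and 131 to 13630.3, 8324 and 10438 (log2 fold change 5.3, SE 0.6, limma, adjusted p = 1.88e-04) and Gzma from 340.3 and 128 to 1901, 2983 and 3246 (log2 fold change 3.65, SE 0.88, limma, adjusted p = 0.0166). Nkg7, a granule membrane protein, rose from 2273 and 1121 to 40445, 21458 and 23986 (log2 fold change 4.11, SE 0.49, limma, adjusted p = 2.71e-04). Of the serpins, which inhibit proteases, Serpinb9 rose from 1271 and 771 to 8783, 5313 and 5755 and Serpinb6b from 454 and 303 to 4229, 1610.4 and 2252. Prf1, which encodes the pore-forming protein perforin, went the other way, from 1427 and 1404 to 360.0, 546 and 819 (log2 fold change -1.38, SE 0.33, limma, adjusted p = 0.0157), passing the adjusted p-value but not the fold threshold. At the Cd8a proportions, CD8 transcripts would come to at most 25.9% of Gzmb, 13.6% of Nkg7, 56.3% of Gzma and 60.3% of Prf1 in a DTx library. Without PBS 3, 4 genes of this list were called and without DTx 1, 6, and the calls of Gzma and Serpinb9 were lost without PBS 3.

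Small surface and calcium-binding protein families held many genes that rose. Of 19 S100, annexin and galectin genes, 13 were called higher and 0 lower (median 2.61), the range being 10 to 14 higher when a library was left out. S100a6 rose from 1002 and 256 to 13701, 12821 and 11168 (log2 fold change 4.62, SE 0.61, limma, adjusted p = 5.00e-04), Anxa2 from 1964 and 1129 to 24476, 29669.6 and 16910.2 and Lgals3 from 1015 and 713 to 13891, 11305 and 11884. Lgals7 went from 9.57 and 5.28 to 429, 843 and 585 (log2 fold change 6.2, SE 0.89, limma, adjusted p = 7.58e-04), the largest rise of the list, and Anxa1, a mediator of inflammation control, from 639.6 and 315 to 10066, 5129 and 5041. The Ifitm genes encode small membrane proteins that are similar in sequence, so reads they share may be misassigned. Of 5 tested, 3 were called higher, and the same number was called when any 1 library was left out. Ifitm1 rose from 77.9 and 1.98 to 29848, 8904 and 13008 (log2 fold change 9.95, SE 1.6, limma, adjusted p = 0.0016), Ifitm2 from 157 and 38.3 to 21963, 9227 and 12749 and Ifitm3 from 153 and 29.7 to 13631, 6003 and 6126. The PBS libraries were far apart, PBS 2 being the higher for all 3, and DTx 1 was the highest DTx library. Of 8 Ly6 surface antigens, whose coding sequences are also alike, Ly6a, Ly6c2 and Ly6g5b were called higher and Ly6c1 and Ly6k lower. Ly6a (Sca-1) rose from 10939 and 6132 to 87496, 75971 and 51484 (log2 fold change 3.09, SE 0.44, limma, adjusted p = 7.13e-04), Ly6c2 from 1178 and 419 to 8053, 2887 and 5406, and Ly6c1 fell from 4210.4 and 4249 to 649, 844 and 531 (log2 fold change -2.67, SE 0.56, limma, adjusted p = 0.00744). The calls of Ly6c1 and Ly6k were lost without either PBS library and that of Ly6c2 without PBS 3, and with only the 5 CD4 libraries in the fit 1 was called in each direction.

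Interferon-stimulated genes outside the Ifitm family moved less. Of 41 tested, 1 was called higher and 1 lower, or 4.88% against 6.85% of all genes tested (median 0.61). At the adjusted p-value alone 9 of the 41 were higher and 2 lower, against 8.64% and 4.08% of all genes tested. Oas3, a sensor of double-stranded RNA, rose from 529 and 489 to 1954, 3246 and 3365 (log2 fold change 2.45, SE 0.38, limma, adjusted p = 0.00122). Oasl1, of the same family, fell from 156 and 367 to 37.4, 63.4 and 40.8 (log2 fold change -2.36, SE 0.59, limma, adjusted p = 0.0201), a call lost without PBS 3 or DTx 3. The other 8 that passed upward, chosen after their values were seen, included Igtp, Irgm2, Iigp1, Gbp2, Gbp3 and Gbp7, GTPases that interferon gamma induces, with log2 fold changes between 1.23 and 1.72. The letters GAAANNGAA, the core that interferon response factors recognise, were found on either strand in the promoter of 6 of the 7 genes higher at the adjusted p-value that had an entry, of 18 of 28 members in all, and of 7.48% of the promoters of all genes tested. The Oas3 promoter is shown because Oas3 is the member called higher and holds overlapping copies, in capitals, at 75 and 69 bases before the start (GRCm38.p6, chr5:120777610-120777909, - strand).

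Oas3: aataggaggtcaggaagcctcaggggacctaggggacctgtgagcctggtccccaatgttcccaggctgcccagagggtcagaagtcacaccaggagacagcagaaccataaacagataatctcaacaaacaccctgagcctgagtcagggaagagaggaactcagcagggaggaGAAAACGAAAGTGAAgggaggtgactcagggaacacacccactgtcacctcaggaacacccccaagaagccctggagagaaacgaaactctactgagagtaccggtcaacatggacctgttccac

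Antigen presentation genes gave 1 call, in the MHC class II list, which is 10% of that list against 6.85% of all genes tested. H2-Ob was the only member called of 10 MHC class II genes tested, and it was lower. Cd74, the invariant chain, was at 1480.0 and 901 in PBS and 655, 1769.9 and 1719.9 in DTx and H2-DMa at 1359.7 and 1184 in PBS and 1739, 2282 and 1609 in DTx. The list's median was 0.06 and turned to -0.08 under scaling to total reads. None of 13 MHC class I genes was called (median 0.45, or 0.31 under scaling to total reads). In 10 of the 13 all DTx libraries lay above both PBS libraries and in 0 below, against 23.4% and 22.9% of all genes tested. The class I heavy chains H2-K1 and H2-D1 did not pass the adjusted p-value, with H2-K1 at 108791 and 104072 in PBS and 173019, 144253 and 123574 in DTx and H2-D1 at 140798 and 145883 in PBS and 264228, 256998 and 206084 in DTx. The immunoproteasome subunit Psmb8 did, going from 13726 and 11445 to 30358, 26467 and 22614 (log2 fold change 1.07, SE 0.31, limma, adjusted p = 0.0391).

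Genes of the naive and stem-like state formed the list with the most members lower. Of 26 tested, 12 were called lower and 0 higher (median -2.13), and between 9 and 11 were called lower when a library was left out. Igfbp4, a secreted protein that marks naive T cells, fell from 30956 and 33934 to 375, 175 and 175 (log2 fold change -7.16, SE 1.77, limma, adjusted p = 0.0193), a call lost without DTx 2 or either PBS library. Dapl1 fell from 1767 and 1906 to 108, 6.13 and 26.3 (log2 fold change -6.05, SE 1.07, limma, adjusted p = 0.00285) and the actin crosslinker Actn1 from 2599 and 3478 to 218, 74.6 and 83 (log2 fold change -4.75, SE 0.44, limma, adjusted p = 8.08e-05). Together with Ccr7 and Sox4 above, all 5 were lower in every DTx library than in either PBS library, as was every gene called lower. The factors Bach2, Tcf7 and Lef1, chosen after their values were seen, had log2 fold changes of -3.94, -2.71 and -2.28. Tcf7, which encodes TCF-1, was still at 8799, 9575 and 8824 normalized reads in DTx against 51745 and 67509 in PBS. In bulk RNA, fewer cells of a type and less RNA per cell cannot be told apart, for these genes as for all those above.

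In the antigen receptor machinery the share of genes called was 5%, against 6.85% of all genes tested. Of 20 genes of the receptor complex and its proximal signalling, 0 were called higher and 1 lower (median 0.23). At the adjusted p-value alone 2 were higher and 3 lower, against 8.64% and 4.08% of all genes tested. The kinase Lck was at 54849 and 58954 in PBS and 62292, 54178 and 51043 in DTx and the phosphatase Ptprc (CD45) at 58636 and 75016 in PBS and 75794, 69313 and 60402 in DTx, with overlapping groups. The Tec-family kinase Txk fell from 5321 and 5857 to 1949, 1016 and 884 (log2 fold change -2.21, SE 0.31, limma, adjusted p = 6.43e-04), a call lost without DTx 3.

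Among 16 genes that mark Treg cells, 8 were called higher and 1 lower in these Foxp3-negative cells (median 2.07). Besides Entpd1, Il2ra, Itgae and Klrg1, the list's leading members included Nrp1, a semaphorin receptor, from 894 and 594 to 5067, 9731 and 7120.4 (log2 fold change 3.27, SE 0.35, limma, adjusted p = 1.52e-04). Gpr83, a G protein-coupled receptor of Treg cells, fell from 394 and 584 to 0, 2.04 and 40.8 (log2 fold change -6.58, SE 1.76, limma, adjusted p = 0.0281), a call lost without any library but DTx 3. Without PBS 3, 5 members were called higher, the calls of Itgae and Klrg1 being lost. Several genes of this list are shared with the lists for suppression, receptors and integrins, so the counts of those lists are not independent.

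Several transcription factors of effector cells rose, and 1 gene tied to exhaustion or anergy was called. Of 17 effector factors, 5 were called higher and 0 lower (median 1.85), and 10 passed the adjusted p-value upward. Bhlhe40, which supports cytokine output, rose from 1479 and 1997 to 27736, 16479 and 28828 (log2 fold change 3.78, SE 0.35, limma, adjusted p = 8.08e-05) and Maf from 283 and 177 to 2966, 2949 and 2137 (log2 fold change 3.56, SE 0.38, limma, adjusted p = 1.58e-04). Id2, an inhibitor of E proteins, went from 7449 and 5319.7 to 71932, 35365 and 36046, Runx2 from 99.8 and 5.94 to 1398, 725 and 1358 and the hypoxia factor Epas1 from 95.7 and 95.1 to 484, 1661 and 1335, the last of which lost its call without DTx 2 or either PBS library. Of 14 exhaustion and anergy genes, 1 was called, higher, against 2 with DESeq2 and 3 without PBS 3. Dgka, a diacylglycerol kinase of anergic cells, fell from 47016 and 51838 to 15773, 21001 and 16936 (log2 fold change -1.47, SE 0.25, limma, adjusted p = 0.00188), short of the fold threshold, and Nfatc1 lay at 6312 and 7455 in PBS and 8589, 15546 and 12836 in DTx.

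Feedback and early response genes varied between libraries. Of 16 MAPK phosphatases, Sprouty and RGS genes, Rgs16, Dusp4 and Dusp14 were called higher, or 18.8% against 6.85% of all genes tested. Dusp4 rose from 38.3 and 130.1 to 465, 401 and 673 and Rgs16, which damps signals from G protein-coupled receptors, from 0 and 112 to 540.5, 896 and 884. Without PBS 2, Dusp14 alone was called, and without DTx 3 or PBS 3 the call of Dusp14 was lost. None of the 16 was called with only the 5 CD4 libraries in the fit. Immediate early genes were highest in PBS 3, where the 16 members summed to 258233 normalized reads, against 60665 in PBS 2 and 22634, 32507 and 40868 in DTx. Fos was at 5052 and 54781 in PBS and 635, 1639 and 3829.5 in DTx and Junb at 23102 and 67403 in PBS and 5023, 9138 and 11357 in DTx, and neither passed the adjusted p-value. Ier3 was the member called, and it was higher, from 31.4 and 85.9 to 275, 467 and 359.5 (log2 fold change 2.76, SE 0.7, limma, adjusted p = 0.0213), a call lost without DTx 2 or PBS 2, while without PBS 3 there were 3 called higher. DESeq2 called 2 immediate early genes lower.

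DNA methylation and Polycomb enzymes gave 1 call in each direction, or 10.5% against 6.85% of all genes tested, too few calls to set the list apart. Zinc finger genes fell under the share of all genes. Of 19 DNA methylation and Polycomb enzymes, Uhrf1, which maintains DNA methylation as DNA is copied, was higher, from 474 and 287 to 1372, 1786 and 1911 (log2 fold change 2.18, SE 0.44, limma, adjusted p = 0.00601), and Tet1, which oxidises methylated cytosine, lower, from 779 and 882 to 26.2, 82.8 and 64.5 (log2 fold change -3.97, SE 0.86, limma, adjusted p = 0.00932). Both calls were lost without PBS 3, and that of Tet1 also without PBS 2. Of 319 Zfp zinc finger genes, 2 were called higher and 4 lower, or 1.88% against 6.85% of all genes tested (median -0.35), or 1 and 1 with edgeR and 0 and 1 with only the 5 CD4 libraries. Zfp2 fell from 131 and 124 to 0 in each DTx library, at least 32.2-fold lower (limma, adjusted p = 7.81e-04). Zfp683, which encodes Hobit, a factor of resident lymphocytes, was at 16.4 and 5.94 in PBS and 34.6, 150.3 and 219.9 in DTx, a call lost without DTx 2, DTx 3 or either PBS library. Zfp296 was the other called higher, a call lost without PBS 2, and the calls of Zfp81, Zfp286 and Zfp773 were lost in at least 4 of the 5 fits that left out a library.

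Of 24 genes of the BCL-2 family, caspases and death receptors, 6 were called higher and 0 lower, or 25% against 6.85% of all genes tested (median 0.57). They were of opposite function. Bcl2a1b, a survival protein, rose from 384 and 231 to 1828, 1171 and 1392 and Pmaip1, the death-promoting NOXA, from 102 and 141 to 818, 697 and 705 (log2 fold change 2.61, SE 0.37, limma, adjusted p = 7.03e-04). Of the inflammatory caspases, Casp1 rose from 562 and 360.0 to 5548, 4557 and 3550.3 (log2 fold change 3.31, SE 0.4, limma, adjusted p = 2.71e-04) and Casp4 from 358 and 112 to 1775, 1382 and 1269. Without PBS 3, 4 genes of the list were called and Bcl2a1b was not among them. Near-identical copies of Bcl2a1 make the level of Bcl2a1b uncertain.

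Mitosis was the list with the most genes called. Of 58 tested genes of the spindle, the kinetochore and chromosome segregation, 35 were called higher and 0 lower, or 60.3% against 6.85% of all genes tested, and the median was 3.09. Mki67, a surface coat of mitotic chromosomes used to mark dividing cells, rose from 289.7 and 183 to 1695, 2652 and 2233 (log2 fold change 3.22, SE 0.57, limma, adjusted p = 0.00286). The kinesin Kif18b, which shortens microtubules in the spindle, was at 0 in PBS and at 473, 308 and 366 in DTx, at least 93.3-fold higher (limma, adjusted p = 3.27e-04). Of the kinetochore proteins, Cenpe went from 0 and 17.2 to 318, 320.0 and 319 and Cenpf from 0 and 3.96 to 78.6, 189 and 223. Anln, which acts in cytokinesis, and Espl1, the separase that releases sister chromatids, were at 0 in PBS, and in DTx Anln was at 97.3, 223 and 93.5 and Espl1 at 132, 113 and 255. In these 6 genes, as in every called gene, the groups did not overlap, and PBS 2 and PBS 3 were both at 0 for 3 of them. The list's median in DTx 1, 2 and 3 was 2.99, 3.12 and 3.0 above the PBS mean. Without PBS 3 the number called was 17, without PBS 2 it was 31 and with only the 5 CD4 libraries in the fit 22. Leaving out PBS 2 also ended the call of Cenpf, and leaving out either PBS library that of Espl1.

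Genes that act before mitosis moved less. Of 49 DNA replication genes, 7 were called higher and 0 lower, or 14.3% against 6.85% of all genes tested, and the median was 0.37. Of the origin factors, Cdc6 rose from 47.8 and 11.2 to 65.5, 547 and 332, Orc1 from 0 and 4.62 to 14, 107 and 121 and Mcm10 from 38.3 and 0 to 192, 235 and 165. The histone chaperone subunit Chaf1a rose from 76.5 and 19.8 to 189.8, 389.6 and 562 and Ticrr, which helps origins fire, from 42.4 and 0 to 100.1, 196 and 244. For Cdc6, Orc1, Chaf1a and Ticrr, DTx 1 was the lowest DTx library. Without PBS 3, 3 of the 49 were called, and with only the 5 CD4 libraries in the fit 2 were. The call of Ticrr was lost without any library but PBS 2, that of Cdc6 without PBS 3, DTx 2 or DTx 3, that of Orc1 without PBS 2 and that of Chaf1a without PBS 3. Of 20 G1 cyclins, CDK inhibitors and E2F factors, 7 were called higher (median 1.36), or 4 with only the 5 CD4 libraries in the fit. Ccne2, cyclin E2, rose from 10.9 and 31 to 235, 314 and 173 and E2f8, a repressive E2F, from 0 to 72.9, 322 and 128. The CDK inhibitor Cdkn1a (p21) rose as well, from 98.4 and 239 to 1229.7, 694 and 699, and Cdkn2b (p15) from 2.73 and 3.96 to 58, 141 and 75.1, so cyclins and their inhibitors were both higher. The call of Cdkn1a was lost without PBS 2. Of 20 genes of homologous recombination and the checkpoint, 3 were called higher, or 15% against 6.85% of all genes tested. Bard1, a ubiquitin ligase subunit of DNA repair, rose from 1.37 and 9.91 to 35.5, 31.7 and 40.8 and the checkpoint kinase Chek1 from 0 and 21.8 to 108, 181 and 47.4. The call of Bard1 was lost without any library but PBS 3 and that of Chek1 without DTx 1, DTx 2 or PBS 2. Without DTx 2 or with only the 5 CD4 libraries in the fit the number called was 0, it was 1 with edgeR and 5 with DESeq2, and the list's median lay at -0.35, 1.29 and 1.44 in DTx 1, 2 and 3.

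Promoters of the mitosis genes shared short sequences that the list did not use. Promoter sequences of RefSeq in build GRCm38.p6 span 250 bases before to 50 after the first listed start, and 48 of the 58 mitosis genes and 9390 of the 12667 tested genes had an entry. TTTGAA, the cell cycle homology region (CHR) that the DREAM complex binds, was found on either strand in 22 of 31 called mitosis genes with an entry, 71%, against 12.2% of all promoters. CCAAT, the box that NF-Y binds, was found in 24 of 31, 77.4%, against 39.5%. The shares over all 48 mitosis genes were 75% and 77.1%, so the called members did not stand out within the list. For DNA replication, GCGGGAA, an E2F element, was found in 2 of 7 called genes and in 16 of 41 members, against 8.36% of all promoters. The promoters of 4 named mitosis genes are shown because they hold both elements close to the start, with TTTGAA and CCAAT, or its reverse complement ATTGG, in capitals. They are Kif18b at chr11:102925075-102925374 (- strand), Cenpf at chr1:189688037-189688336 (- strand), Espl1 at chr15:102296043-102296342 (+ strand) and Mki67 at chr7:135716330-135716629 (- strand).

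Kif18b: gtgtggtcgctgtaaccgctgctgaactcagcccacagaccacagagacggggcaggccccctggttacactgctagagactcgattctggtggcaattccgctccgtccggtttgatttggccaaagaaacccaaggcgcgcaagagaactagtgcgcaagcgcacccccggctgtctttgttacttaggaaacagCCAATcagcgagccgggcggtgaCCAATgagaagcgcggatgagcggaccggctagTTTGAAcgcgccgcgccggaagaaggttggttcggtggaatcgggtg
Cenpf: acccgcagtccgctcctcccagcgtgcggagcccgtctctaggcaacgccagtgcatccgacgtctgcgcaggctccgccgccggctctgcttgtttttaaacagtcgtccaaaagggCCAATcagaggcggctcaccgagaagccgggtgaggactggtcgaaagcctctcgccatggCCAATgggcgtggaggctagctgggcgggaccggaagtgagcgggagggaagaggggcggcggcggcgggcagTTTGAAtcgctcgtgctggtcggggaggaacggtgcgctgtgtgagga
Espl1: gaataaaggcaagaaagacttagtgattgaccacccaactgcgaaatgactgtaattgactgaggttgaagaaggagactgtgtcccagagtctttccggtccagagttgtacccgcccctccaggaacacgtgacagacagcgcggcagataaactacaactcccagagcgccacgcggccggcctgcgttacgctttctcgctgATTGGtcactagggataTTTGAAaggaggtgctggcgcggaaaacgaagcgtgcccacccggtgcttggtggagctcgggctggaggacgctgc
Mki67: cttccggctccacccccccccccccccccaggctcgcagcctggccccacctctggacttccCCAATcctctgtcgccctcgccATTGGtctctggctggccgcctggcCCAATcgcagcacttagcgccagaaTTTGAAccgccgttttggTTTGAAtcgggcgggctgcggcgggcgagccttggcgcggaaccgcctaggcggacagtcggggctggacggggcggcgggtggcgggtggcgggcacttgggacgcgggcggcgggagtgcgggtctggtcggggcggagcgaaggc

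In Kif18b the CCAAT boxes start 53 and 30 bases before the start and TTTGAA 3 bases after it, and in Cenpf they lie at 132 and 71 before and 2 after. Espl1 has its ATTGG 44 and its TTTGAA 27 bases before the start. Mki67 holds 2 copies of TTTGAA, 116 and 98 bases before the start, and 3 of CCAAT or ATTGG upstream of them. A match describes these letters and no binding was measured.

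Glycolysis was the metabolic list with the most genes called. Of 24 genes, 4 were called higher and 2 lower, and at the adjusted p-value alone 16 were higher and 3 lower, against 8.64% and 4.08% of all genes tested (median 1.31). Hk2, the inducible hexokinase, rose from 6.83 and 0 to 373, 129 and 308 (log2 fold change 6.46, SE 1.08, limma, adjusted p = 0.00189). Aldoc, an aldolase, rose from 137 and 69.4 to 1132, 1015 and 1213 and the triose phosphate isomerase Tpi1 from 2916 and 2381 to 30083, 14779 and 14866 (log2 fold change 2.83, SE 0.36, limma, adjusted p = 4.10e-04). Slc16a3, the transporter MCT4 that exports lactate, went from 91.6 and 40.3 to 816, 989 and 1144 (log2 fold change 3.98, SE 0.53, limma, adjusted p = 5.18e-04). Of those that passed the adjusted p-value without the fold, chosen after their values were seen, Gapdh, Pgk1, Ldha and the glucose transporter Slc2a1 had log2 fold changes of 1.72, 1.71, 1.29 and 1.32. The 2 called lower were Ldhb and Pdk1. Ldhb, the lactate dehydrogenase subunit that favours pyruvate, fell from 1641 and 1435 to 258, 162 and 105 (log2 fold change -3.22, SE 0.48, limma, adjusted p = 0.001). Pdk1, which inhibits pyruvate dehydrogenase, fell from 14784 and 15597 to 1185, 2589 and 3136 (log2 fold change -2.83, SE 0.38, limma, adjusted p = 5.18e-04). All 6 calls held when any 1 library was left out. ACGTG, the core of the element that hypoxia-inducible factors bind, was found in 8 of 15 promoters of glycolysis genes higher at the adjusted p-value, in 11 of 23 over all tested members (47.8%) and in 25.8% of all promoters. Of 15 other hypoxia genes (median 1.18), 5 passed the adjusted p-value upward and 0 downward, and Ero1l, an oxidase of protein folding, and Egln3, a prolyl hydroxylase, were called higher. Ero1l rose from 2017 and 2199 to 12883, 10571 and 9063 (log2 fold change 2.35, SE 0.29, limma, adjusted p = 2.85e-04), and Egln3, from 129.8 and 157 to 400.2, 830.2 and 716, lost its call without DTx 2 or either PBS library.

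Mitochondrial and biosynthetic lists gave almost no calls. Of 74 genes of the respiratory chain and ATP synthase, 0 were called and 0 passed the adjusted p-value, with a median of 0.39 and a range from -0.26 to 1.15. Atp5b lay at 33127 and 34236 in PBS and 37559, 36122 and 30279 in DTx and Atp5a1 at 19871 and 21883 in PBS and 18162, 21987 and 17926 in DTx. Of 18 citric acid cycle genes, 0 were called and 2 passed upward at the adjusted p-value (median 0.06, which turned to -0.08 under scaling to total reads), Ogdh being at 10762 and 11051 in PBS and 7676, 11132 and 10564 in DTx and Mdh2 at 7971 and 7910.2 in PBS and 13249, 9185 and 7989.6 in DTx. Of 22 genes of cholesterol synthesis, 0 were called and 4 passed upward (median 0.36). Fatty acid synthesis gave 0 calls in 12 genes, with Acly at 9764 and 8756 in PBS and 5569.6, 9677 and 9654 in DTx and Elovl5 at 5145 and 6075 in PBS and 10164, 10293 and 7098 in DTx. Of 22 genes of nucleotide and one-carbon synthesis, 0 were called and 4 passed downward (median -0.48), among them Impdh1, which makes guanine nucleotides, from 4735 and 5409.6 to 3125, 3141 and 3006 (log2 fold change -0.71, SE 0.21, limma, adjusted p = 0.0424), while the purine enzyme Paics lay at 4012 and 4293 in PBS and 5656, 4989.6 and 4269 in DTx. Among 12 amino acid transporters, Slc43a1 was called higher, from 0 to 81.4, 62.4 and 7.9, a call lost without any library but DTx 3, whereas Slc3a2 was at 3475 and 5146 in PBS and 10402, 5591 and 8821 in DTx and the glutamine carrier Slc1a5 at 8780.2 and 8297 in PBS and 6652, 10521 and 9572 in DTx.

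Protein synthesis and folding lists gave 1 call in all, and 7 ribosome assembly genes fell at the adjusted p-value. Of 82 cytosolic ribosomal protein genes, 0 were called and 1 passed downward (median -0.21), Rpl4 being at 29289.8 and 31350.4 in PBS and 36685, 24822 and 24944 in DTx. Of 77 mitochondrial ribosomal protein genes, 0 were called (median 0.19), with Mrpl18 at 1953 and 1548 in PBS and 2657, 2059 and 1991 in DTx and Mrpl4 at 1935 and 1694 in PBS and 2766, 2348 and 2423 in DTx. Of 25 ribosome biogenesis genes, 0 were called, 0 passed upward and 7 passed downward (against 4.08% of all genes tested, median -0.82). These 7, chosen after their values were seen, were Grwd1, Polr1b, Nop14, Nop56, Dkc1, Nop58 and Nop2, with log2 fold changes between -1.38 and -0.82. Nucleolin (Ncl) and Npm1, the members with the highest normalized reads, a scale not corrected for gene length, had overlapping groups, with Ncl at 8916 and 12026 in PBS and 13238, 6692 and 7559 in DTx and Npm1 at 9459 and 9325 in PBS and 10882, 6242 and 6940.0 in DTx. Of 40 proteasome genes, 0 were called and Psmb8 passed upward (median 0.35), with Psmd2 at 9039 and 9515 in PBS and 11912, 11369.7 and 10571 in DTx. In 27 of the 40 all DTx libraries lay above both PBS libraries and in 0 below, against 23.4% and 22.9% of all genes tested. Among 21 cytosolic chaperones 0 were called, Hspa8 lying at 22152 and 56143 in PBS and 74334, 33440.5 and 35706 in DTx and Hsp90ab1 at 21618 and 32661 in PBS and 32275, 22281 and 20823 in DTx. In the endoplasmic reticulum, 1 of 18 genes was called, the stress sensor Atf6, from 387 and 404 to 2779, 2137 and 2044 (log2 fold change 2.54, SE 0.35, limma, adjusted p = 5.98e-04). The chaperone Hspa5 lay at 13228 and 37774 in PBS and 17262, 19728 and 15556 in DTx, its groups overlapping, and Hsp90b1 at 7647 and 8871 in PBS and 14863, 14406 and 11453 in DTx. Of 22 actin and tubulin genes, 3 were called higher (Scin, Myo1f and Tubb6) and 2 lower (Myo10 and Tubb2a), none of those lower being called with only the 5 CD4 libraries. Myo1f, a class I myosin of leukocytes, rose from 2260.3 and 871 to 12442, 11577 and 12599 (log2 fold change 3.12, SE 0.34, limma, adjusted p = 1.77e-04), and of the beta tubulins Tubb6 rose from 54.7 and 85.2 to 761, 243 and 466 and Tubb2a fell from 571 and 1234 to 40.2, 143 and 104. The calls of Tubb6, without PBS 2, of Tubb2a, without PBS 3, and of Myo10, without either, were lost.

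Some lists were uneven over the 3 DTx libraries. The median member of the type 2 list was 2.01, 3.38 and 2.85 above the PBS mean in DTx 1, 2 and 3 on the log2 scale, and for type 1 the values were 2.92, 2.4 and 2.67. DTx 1 was thus the lowest library for the first and the highest for the second, a description of 3 libraries with no test. Killer lectin-like receptors stood at 2.73, 0.0 and 1.77, chemokine ligands at -1.13, 0.37 and 1.69 and TGF-beta pathway genes at -1.53, -0.41 and -0.34. By contrast the chemokine receptors lay at 2.34, 2.38 and 2.32, costimulatory genes at 1.69, 1.85 and 1.72 and glycolysis at 1.41, 1.42 and 1.26. The PBS libraries differed as well, PBS 2 exceeding PBS 3 by a median of 0.84 in the type 1 list and 2.01 in the Ifitm family.

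**Figure D4:**
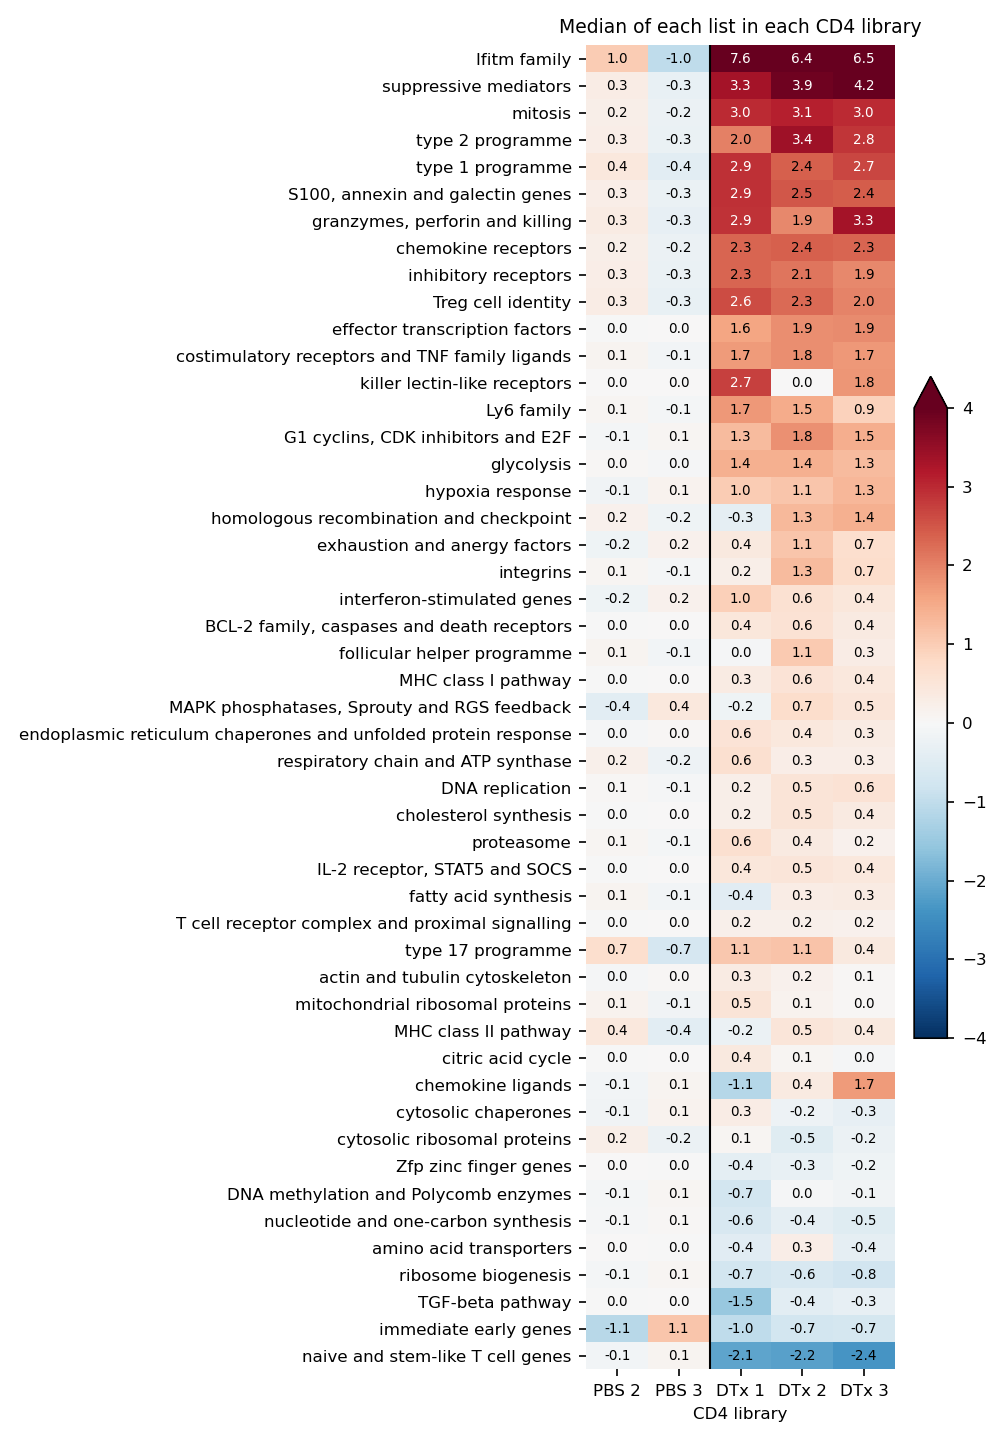
Median over the tested members of each list of the difference, on the log2(normalized reads + 1) scale, between each CD4 library and the mean of the PBS libraries. The mitosis list is even over the DTx libraries at 3.0 to 3.1, homologous recombination genes are at -0.3 in DTx 1 against 1.3 and 1.4, and immediate early genes separate PBS 3 from the other libraries.

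The effect of DTx in CD4 cells was compared with its effect in CD8 cells from the same treatments, which used other control libraries. In CD8 cells 692 genes were called (5.46% of genes tested, 490 higher or 3.87%, and 202 lower or 1.59%), and 332 were called higher in CD4 and CD8 alike, which is 51.8% of those called higher in CD4 and 67.8% of those called higher in CD8. For lower genes, 95 were shared, 41.9% and 47% of the lists. The mitosis list had 35 members called higher in CD4 and 38 in CD8, and the naive list 12 and 16 called lower. CD4 and CD8 libraries carry the same replicate numbers. Whether they came from the same tumors is not given, and they were treated as independent. The difference between the effects was tested directly as an interaction. It was called for 6 genes, or 0.0474% of those tested, 3 in each direction or 0.0237%, and 513 genes had an unadjusted p-value under 0.05. With edgeR on recovered reads 4 were called and with DESeq2 70. Ccl1, Fam20a and Scin rose more in CD4 cells and Prf1, Ly6c1 and Myo10 moved in opposite directions, down in CD4 and up in CD8. Prf1 was at 5663 and 3488 normalized reads in CD8 PBS and 12785, 17976 and 14992 in CD8 DTx, against the drop in CD4 given above (interaction log2 difference -3.14, SE 0.46, limma, adjusted p = 0.0447). For Ccl1 the CD8 values were 226 and 38.7 in PBS and 1335, 1072 and 1053 in DTx. The count of interaction calls ranged from 0 to 14 when a library was left out, and it was 0 without either PBS library.

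**Figure D5:**
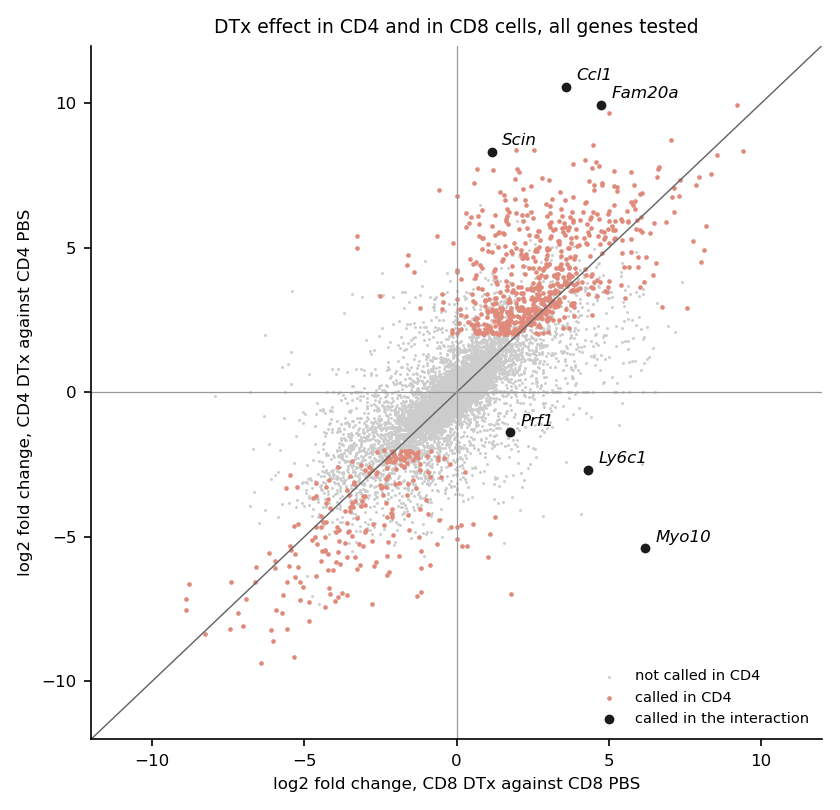
DTx effect in CD4 cells (vertical axis) and in CD8 cells (horizontal axis), each as the log2 fold change from PBS, for the 12667 genes tested, with genes called in CD4 in red, the line of equal effects in grey and the 6 genes called in the interaction in black. Ccl1, Fam20a and Scin lie above the line, and Prf1, Ly6c1 and Myo10 lie in the quadrant that is lower in CD4 and higher in CD8.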

How the data were processed

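The 13 libraries were made, per the labels, from FACS-sorted tumor T cells with a SmartSeq2 protocol and sequenced on an Illumina HiSeq. The authors aligned reads to the NCBIM37 (mm9) mouse genome and deposited 1 table of a normalized signal per gene symbol and library. Column sums differed, and 100% of the values in a library came out as whole reads, with a tolerance of 0.01, after division by a single step, so the deposited signal is a read count divided by a size factor. Below it is called normalized reads, and the whole reads recovered from it give the depth. The step, 1 read, was worth 0.661 to 1.37 units. The read counter and the strand setting are not given in the sources used here, so overlapping, antisense and near-identical genes are uncertain. Dates stood in place of 21 symbols, and these rows are not named.

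Genes that reached 10 normalized reads in 2 or more of 13 libraries were fitted with limma 3.58.1 (R 4.3.3) on log2(value + 1), with 1 mean per group over all 13 libraries and a mean trend in the variance. A gene that varies in any group therefore has a wide SE. The design had assumed values scaled to a fixed total, and its pseudocount and minimum were kept. Calls needed a Benjamini-Hochberg adjusted p-value under 0.05 and a log2 fold change beyond 2, and the same rule was applied to the interaction of treatment and cell type. A group at 0 in all its libraries was set to 3 reads, at the largest value of a read among them, for a lower bound on the fold. Groups with reads, but no more than 3 in any library, are given as a ratio with an exact 95% interval, which covers counting error only. Tests were checked on simulated data.

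Gene lists, 58 with those for other cells and technical genes, were written from textbook knowledge, with earlier results of these data known, as were the members and the design. Named genes were the 12 largest rises and falls among called genes with no overlap, up to 5 called members of each list and direction, the 2 most abundant members of lists with fewer than 2 calls, lineage and cytokine genes, genes called in the interaction, and all markers of other cells. Some genes that the rule names are not reported here. Genes outside it are said to be chosen after their values were seen. Alternatives were 16 planned fits and 1 chosen after seeing the data (sex as a term), with edgeR 4.0.16 and DESeq2 1.42.0 on the recovered reads. In the fits that left out a library, only CD4 libraries were left out. Replicate pairs of a group differed far beyond counting noise (chi-square per degree of freedom from 42.2 to 200) and were kept as separate samples. Motifs were searched on both strands.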

Additional observations from a re-analysis of the deposited data

Results flagged for a closer look

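For 6 genes the DTx effect in CD4 cells differed from that in CD8 cells in the test of the difference itself (limma interaction). The difference, CD4 minus CD8, on the log2 scale was 7.17 for Scin (limma, adjusted p = 0.0281), 6.99 for Ccl1 (limma, adjusted p = 0.0281) and 5.22 for Fam20a (limma, adjusted p = 0.0354). For these 3 genes CD4 PBS was at 0 in both libraries, so the size of the difference depends on the pseudocount. It was -6.99 for Ly6c1 (limma, adjusted p = 0.0146), -11.58 for Myo10 (limma, adjusted p = 0.0447) and -3.14 for Prf1 (limma, adjusted p = 0.0447). Myo10 was at 619 and 789 normalized reads in CD4 PBS and 102, 6.13 and 5.27 in CD4 DTx, against 1.21 and 0 in CD8 PBS and 163, 30.8 and 242 in CD8 DTx. For Prf1, Ly6c1 and Myo10 all 3 DTx libraries lay below both PBS libraries in CD4 cells and above both in CD8 cells. None of the 6 differences was called when either CD4 PBS library was left out.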

How the results depend on the processing

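Over 17 other fits, the number of genes called in CD4 DTx against CD4 PBS stayed within 1.5 times 868, from 601 with only the 5 CD4 libraries to 1041 with DESeq2 on recovered reads, apart from leaving out single replicates, which gave 496 to 838. Genes called higher came to 432 to 654 and genes called lower to 64 to 233 when a replicate was left out. Genes called lower numbered 148 with edgeR and 149 with only the 5 CD4 libraries, against 227. Genes passing the adjusted p-value alone came to 983 with only the CD4 libraries and 658 to 1433 without a replicate, against 1612, and DESeq2 passed 2324. The interaction count of 6 became 70 with DESeq2, 12 without a variance trend and 0 to 14 without a replicate. Of the 153 named genes that were called, 84 were called in every alternative in which they were fitted and none changed direction. Deviations of same-numbered CD4 libraries from their group means were correlated at -0.21 and -0.31. The deviations of the 2 PBS libraries mirror each other, so these values are not independent and cannot decide on pairing. No such check was made between CD4 and CD8 libraries. The replicates were isolated on independent days, no source used here says whether a number marks the same day in both groups, and in both the library numbered 3 was the male one. With the replicate block 878 genes were called, 665 higher and 213 lower, 2029 passed the adjusted p-value and 9 were called in the interaction, and Amigo2, Bard1, Cxcr1 and Ifng were no longer called. Sign changes were limited to named genes that were not called. Under total read scaling Ptprc was -0.101, Cd74 was -0.0174, Atp5b was -0.107, Slc1a5 was -0.106. With the replicate block Atp5b was -0.0176, Ogdh was 0.0457, Srebf2 was 0.223, Cd4 was -0.188. With sex as a term Atp5b was -0.0147, Srebf2 was 0.00995. With DESeq2 Srebf2 was 0.0175. With edgeR Lck was 0.0031, Srebf2 was 0.0401. Without a replicate, the log2 fold change ran from -0.137 to 0.218 for Ptprc, -0.113 to 0.0309 for Lck, -1.97 to 7.91 for Xist, -8.19 to 3.78 for Ddx3y, -0.234 to 0.595 for Cd74, -0.0261 to 0.129 for Atp5b, -0.333 to 0.315 for Srebf2, -0.334 to 0.064 for Acly, -0.097 to 0.234 for Slc1a5, -0.332 to 1.01 for Hspa8, -0.406 to 0.189 for Hsp90ab1, -1.12 to 0.398 for Hspa5. The cause of these shifts was not tested. At these depths a gene at 0 in a library has an upper limit of 1.98 to 4.1 normalized reads.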
